A study of Rattus norvegicus with 12 samples.

Results

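The 8 genes described here encode the inflammasome and the pore-forming proteins of pyroptosis, namely the sensors Nlrp3, Nlrc4, and Aim2, the adaptor Pycard, the caspases Casp1 and Casp4, and the gasdermins Gsdmd and Gsdma. They were chosen by symbol as genes of this pathway, with earlier results of these data known but without a rule on their values, and all 8 were found among the 25620 genes with read counts and among the 25524 genes with FPKM. The study examined a natural adhesive from snail mucus on skin wounds of diabetic rats, and the 12 libraries used here hold wound skin of 4 treatments on day 3, 7, and 14, with 1 library per treatment and day. The Control wounds received saline. The d-SMG wounds received the dried mucus gel of *A. fulica*, the s-GAG wounds (labelled GAG) the sulfated glycosaminoglycan purified from that gel, and the Alg wounds a commercial alginate dressing. Every group, the Control included, consisted of male Sprague-Dawley rats made diabetic with streptozotocin, a drug that destroys insulin-producing cells, with a full-thickness punch wound on the back. Neither unwounded skin nor skin of non-diabetic rats was analysed here, the age of the rats is not in the labels, and the labels do not say whether a library holds 1 animal or a pool.

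An inflammasome is a protein complex that macrophages, keratinocytes, and other cells assemble in the cytosol when a sensor meets a sign of infection or damage. The sensor gathers the adaptor ASC, the product of Pycard, and through it caspase-1, which matures interleukin-1β and interleukin-18 and cleaves gasdermin D. The freed end of gasdermin D opens pores in the plasma membrane, and the cell can die by pyroptosis. In diabetic wounds, the Nlrp3 inflammasome of macrophages is known as a source of lasting interleukin-1β. The values below are mRNA levels, and neither the assembly of the complex nor the cleavage of any protein was measured.

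The libraries held 13748887 to 38302461 reads on genes. Levels are given as CPM, the read count of a gene relative to the size of its library after TMM scaling, a correction for libraries in which few genes take many reads (factors 0.715 to 1.21). Marker lists of the cell types in skin were summed in each library to see what tissue it held. The libraries differed widely in this respect, with sums of 48.9 to 28736 CPM for keratinocytes, 4.50 to 7204 CPM for hair follicles, 31.7 to 867 CPM for sebaceous glands, 6383 to 45012 CPM for fibroblasts, and 4774 to 194591 CPM for skeletal muscle. Macrophage and monocyte markers summed to 283 to 2740 CPM, neutrophil markers to 11.2 to 163 CPM, T and NK cell markers to 108 to 396 CPM, and endothelial markers to 316 to 815 CPM, while genes of the interferon response summed to 111 to 4332 CPM. The d-SMG library of day 3 stood apart, with 48.9 CPM of keratinocyte markers where the other 11 libraries held at least 3650 CPM, and with the highest muscle sum. The s-GAG library of day 14 held the lowest macrophage sum, 283 CPM, and the highest keratinocyte sum. The labelled tissue is skin, and in the d-SMG library of day 3 its keratinocyte markers were detected, 9 of 9 that could be matched, but at this low level. Beside many of the ranges, correlations, and fold changes that moved without either library, the value without it is given.

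Per length, the adaptor and gasdermin D were the most abundant of the 8 members in most libraries. On the FPKM scale, which divides by gene length and thereby allows levels of different genes to be compared, Pycard was the highest of the 8 genes in 12 of 12 libraries, at 14.9 to 60.1 FPKM. Gsdmd took rank 2 in 11 libraries, and Gsdma took it in the Alg library of day 14. Together Pycard and Gsdmd made up 58.3% to 85.4% of the summed FPKM of the 8 genes. The sensors lay far below, with Nlrp3 at 0.13 to 1.48 FPKM, Nlrc4 at 0.10 to 1.95 FPKM, and Aim2 at 0.06 to 1.63 FPKM, so that the ratio of Pycard to Nlrp3 ran from 15.6 in the Control library of day 7 to 462 in the s-GAG library of day 14, and to 76.7 in the s-GAG library of day 7 when the former was left out. Casp1 and Casp4 were close to each other, with a ratio of 0.97 to 2.04. The order of the members in FPKM depends on the gene lengths used. Aim2 and Casp4 had 1902 and 1928 reads over the 12 libraries, but median levels of 0.595 and 4.605 FPKM.

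**Figure D1:**
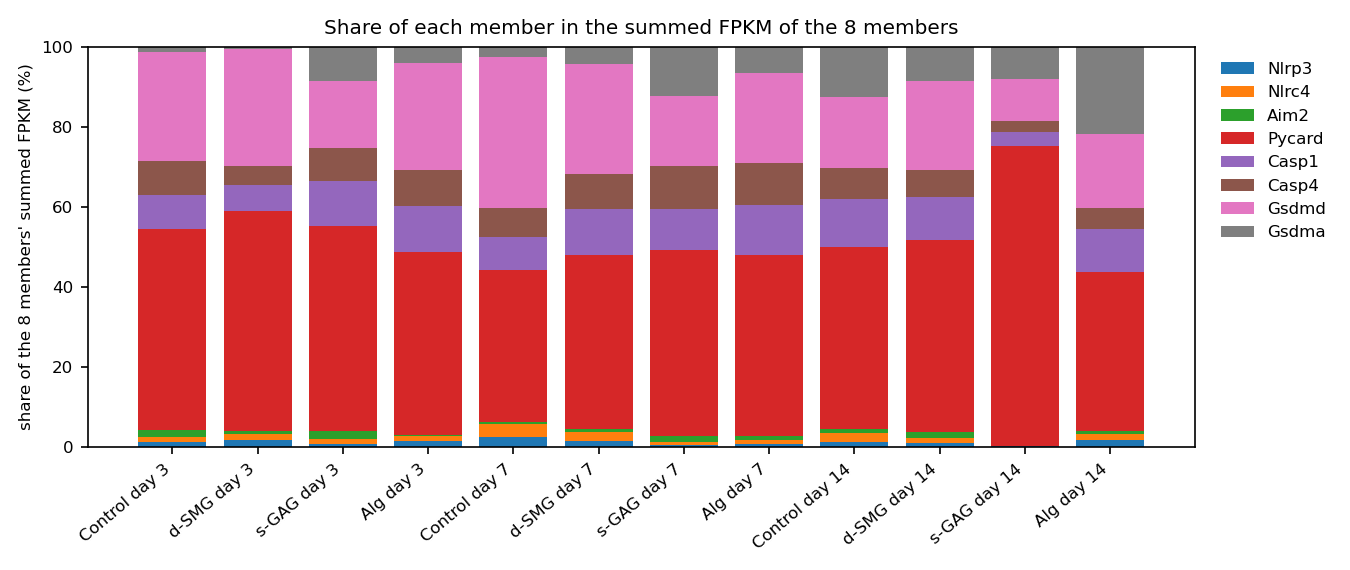
Share of each of the 8 genes in their summed FPKM (vertical axis, percent) for each of the 12 libraries (bars, ordered by day), without error bars because each bar is 1 library. Pycard and Gsdmd together fill 58.3% to 85.4% of every bar, and the share of Gsdma is widest in the Alg library of day 14.

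The order by range was different. Gsdma had the widest range over the 12 libraries, 88.8-fold between its lowest and highest CPM, and 12.4-fold without the d-SMG library of day 3. Aim2 came next with 22.0-fold, Nlrc4 with 16.5-fold, and Nlrp3 with 9.21-fold, which became 8.82-fold, 6.0-fold, and 5.16-fold without the s-GAG library of day 14. The ranges of the other members were 4.57-fold for Casp4, 3.69-fold for Pycard, 3.20-fold for Casp1, and 2.96-fold for Gsdmd. Without both libraries they were 2.05-fold, 2.27-fold, 1.61-fold, and 2.96-fold, so that the ranges of the sensors and Gsdma were wider than those of the other members with and without these libraries. In bulk tissue, fewer cells of a type and less RNA per cell cannot be told apart, and this holds for every level below.

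**Figure D2:**
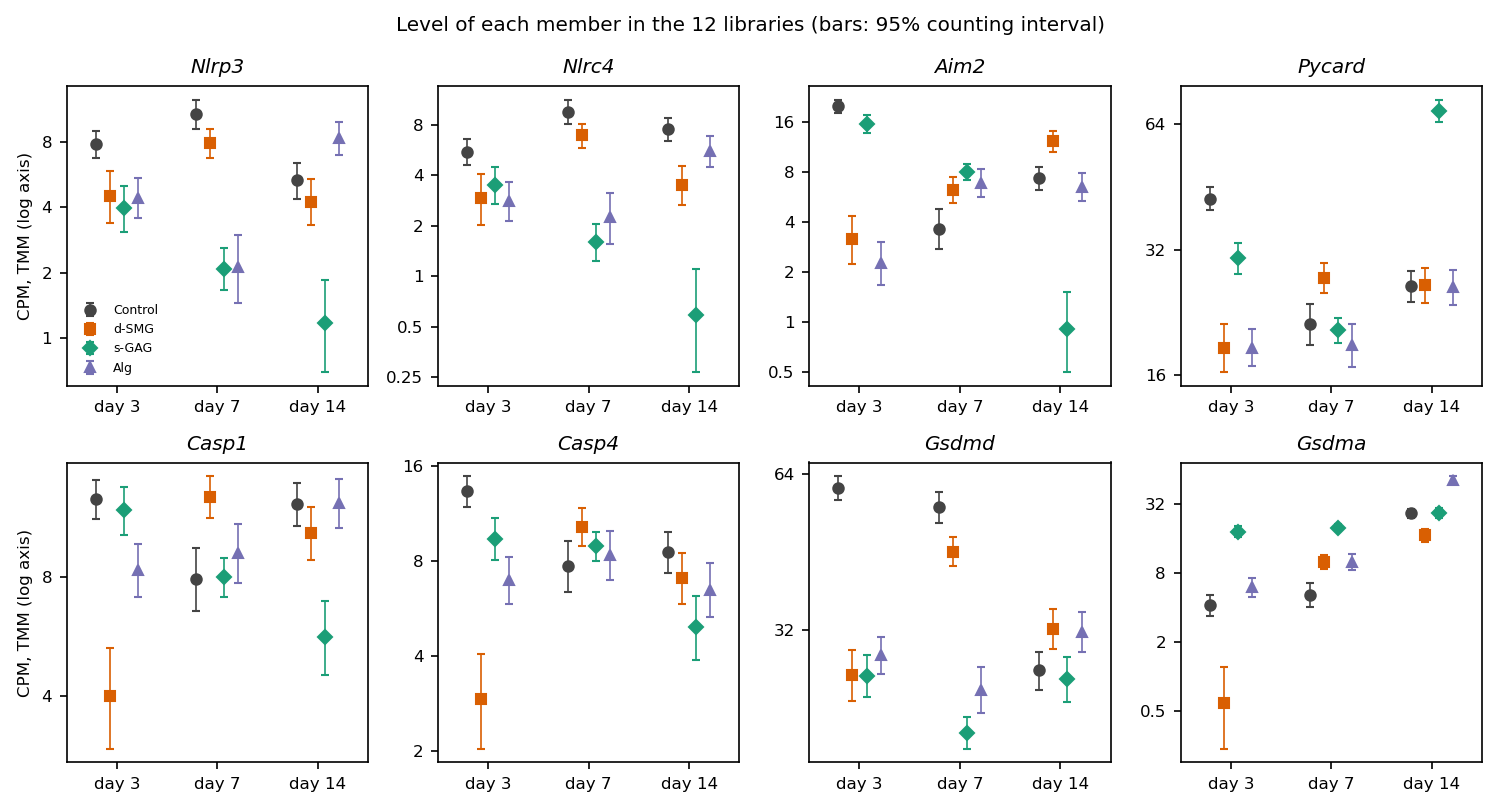
Level of each member in CPM (vertical axis, log scale with base 2, own range per panel) by day (horizontal axis) and treatment (colour and symbol); each point is 1 library and each bar its 95% counting interval. Nlrp3 and Nlrc4 of s-GAG lie below the Control on each day, and Gsdma of d-SMG on day 3 is the lowest point of its panel.

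Nlrp3 encodes the sensor of potassium efflux, crystals, and other signs of damage. Its level was 7.82, 10.8, and 5.33 CPM in the Control libraries of day 3, 7, and 14, and 4.50, 7.94, and 4.26 CPM in the d-SMG libraries. In the s-GAG libraries it was 3.97, 2.09, and 1.17 CPM, and in the Alg libraries 4.44, 2.12, and 8.38 CPM. The 3 s-GAG libraries thus lay below the 3 Control libraries without overlap, a pattern held by 7.53% of 16792 genes with at least 50 reads. The d-SMG and Alg levels of Nlrp3 overlapped with those of the Control. Nlrc4, the sensor that acts with NAIP proteins on bacterial flagellin and secretion systems, followed almost the same course. It stood at 5.53, 9.62, and 7.56 CPM in the Control and at 3.51, 1.60, and 0.58 CPM with s-GAG, again without overlap. The values were 2.91, 6.93, and 3.50 CPM with d-SMG and 2.81, 2.25, and 5.61 CPM with Alg, and both sets overlapped with the Control. The s-GAG value of day 14 rests on 18 reads for Nlrp3 and 9 reads for Nlrc4.

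Aim2, the sensor of double-stranded DNA in the cytosol, did not follow the other sensors. In the Control it was 20.0 CPM on day 3, its highest level in any library, and 3.66 and 7.37 CPM on day 7 and 14. The s-GAG library of day 3 came next with 15.6 CPM, and the later s-GAG libraries held 8.05 and 0.91 CPM. The d-SMG libraries held 3.16, 6.26, and 12.3 CPM and the Alg libraries 2.27, 6.89, and 6.56 CPM. On day 3 the levels therefore fell into a high pair, the Control and s-GAG, and a low pair, d-SMG and Alg.

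Pycard was even over most libraries. It lay at 18.6 to 30.6 CPM in 10 of the 12 libraries, above this at 42.3 CPM in the Control library of day 3 and at 68.8 CPM in the s-GAG library of day 14. In the latter, which held the lowest levels of all 3 sensors, Pycard was at its highest. Casp1, the effector of the complex, had its lowest level, 4.0 CPM from 48 reads, in the d-SMG library of day 3 and its highest, 12.8 CPM, in the d-SMG library of day 7, and its median over the 12 libraries was 9.77 CPM. Casp4, whose product binds bacterial lipopolysaccharide and cleaves gasdermin D without a sensor complex, was lowest in the same d-SMG library with 2.91 CPM and highest in the Control library of day 3 with 13.3 CPM. Casp1 and Casp4 are related genes that neighbour each other on chromosome 8, and reads that match both could have been assigned to either.

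Gsdmd encodes the gasdermin that inflammatory caspases cleave. Its levels in the Control were 60.2, 55.2, and 26.8 CPM on day 3, 7, and 14. The d-SMG libraries held 26.2, 45.4, and 32.2 CPM, the s-GAG libraries 26.2, 20.3, and 25.8 CPM, and the Alg libraries 28.7, 24.6, and 31.8 CPM. The Control of day 3 and 7 and d-SMG of day 7 stood above all other libraries. The s-GAG libraries lay below all 3 Control libraries in CPM, as they did for 7.53% of genes, on day 14 by less than the counting error. In FPKM, s-GAG of day 3 lay above the Control of day 14, with 12.15 against 11.35.

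Gsdma encodes a gasdermin of the epidermis and hair follicle that is not a substrate of caspase-1. In the Control it was 4.17, 5.15, and 26.3 CPM on day 3, 7, and 14. With s-GAG it was already 18.3 CPM on day 3, followed by 19.7 and 26.4 CPM. The d-SMG libraries held 0.58, 9.95, and 16.9 CPM, the first of these from 7 reads in the library with few keratinocyte reads, and the Alg libraries 5.97, 9.94, and 51.8 CPM. Each treatment was at its highest on day 14, and as a consequence the FPKM ratio of Gsdmd to Gsdma ran from 61.1 in d-SMG on day 3, or 19.9 in the Control of day 3 without that library, to 0.85 in Alg on day 14.

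For Aim2, Casp1, and Gsdma, shown as a sensor, a caspase, and a gasdermin with a matched sequence, the 250 bases before the RefSeq start are shown (build GRCr8, gene strand, 5′ to 3′). RefSeq sequences were matched for 5 of the 8 members, also for Nlrp3 and Pycard, and not for Nlrc4, Casp4, and Gsdmd. The windows of Aim2, Casp1, Gsdma, and Nlrp3 lie within the annotated span of their genes, so that the annotated genes begin upstream of them. Capitals mark matches to 3 motifs searched on both strands, the interferon-stimulated response element (GAAA, any 2 bases, GAAA), the gamma-activated site (TTC, any 3 bases, GAA), and an NF-kB pattern (GGG, any 5 bases, CC), which are held by 3.41%, 7.67%, and 42.3% of 33469 promoter windows of the same length, respectively. The Aim2 window lies at chr13:88398372-88398621 on the plus strand, that of Casp1 at chr8:10872580-10872829 on the plus strand, and that of Gsdma at chr10:84123064-84123313 on the plus strand.
Aim2: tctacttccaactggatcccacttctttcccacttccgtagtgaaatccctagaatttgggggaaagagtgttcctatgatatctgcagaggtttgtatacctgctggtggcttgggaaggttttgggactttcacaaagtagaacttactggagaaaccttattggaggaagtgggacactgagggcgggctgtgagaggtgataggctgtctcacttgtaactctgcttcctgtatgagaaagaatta
Casp1: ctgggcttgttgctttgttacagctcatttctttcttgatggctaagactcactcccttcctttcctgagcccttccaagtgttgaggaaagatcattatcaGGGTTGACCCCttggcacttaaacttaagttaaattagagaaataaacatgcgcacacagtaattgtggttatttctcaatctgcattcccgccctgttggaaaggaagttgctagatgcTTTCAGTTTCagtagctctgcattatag
Gsdma: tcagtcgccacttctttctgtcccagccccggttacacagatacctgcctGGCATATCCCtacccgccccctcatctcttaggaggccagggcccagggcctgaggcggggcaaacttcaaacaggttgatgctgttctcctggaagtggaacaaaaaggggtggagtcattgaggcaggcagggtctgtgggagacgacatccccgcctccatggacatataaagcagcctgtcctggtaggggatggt

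The Casp1 window held the interferon-stimulated response element 28 to 19 bases before the start, read on the other strand, and 2 overlapping NF-kB matches that form 1 run of capitals. The Gsdma window held an NF-kB match 200 to 191 bases before the start, and the Nlrp3 window, which is not shown, a gamma-activated site 121 to 113 bases before the start. None of the 3 patterns was found in the windows of Aim2 and Pycard, which says only that these letters are not in these 250 bases.

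Treatments were compared over the 3 days with the quasi-likelihood test of edgeR, in which day and treatment are terms and the days serve as the replicates of a treatment. No member passed an FDR of 0.05 for d-SMG, s-GAG, or Alg against the Control, and the background was likewise 0% of the 16110 genes tested in each comparison. At an unadjusted p under 0.05 edgeR listed 218 genes and 0 members for d-SMG, 1492 genes and 3 members for s-GAG, and 502 genes and 0 members for Alg. DESeq2 called 9, 288, and 88 genes in the same comparisons and no member. Without the d-SMG library of day 3, DESeq2 called Nlrc4 for s-GAG (log2 fold change -2.07, adjusted p = 0.0403), and without that library and the s-GAG library of day 14 it called Gsdma (1.94, adjusted p = 0.00195) and not Nlrc4. With both left out, edgeR called 177 genes for s-GAG and no member, with Gsdma at an adjusted p of 0.0947. The 3 comparisons share the Control libraries.

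The members of lowest p were those that s-GAG separated from the Control in CPM. Nlrc4 had a log2 fold change of -1.97 (SE 0.68, unadjusted p = 0.0169, adjusted p = 0.493 by edgeR), lower on 3 of 3 days. Nlrp3 had -1.72 (SE 0.62, unadjusted p = 0.0200, adjusted p = 0.499) and Gsdmd -0.91 (SE 0.37, unadjusted p = 0.0330, adjusted p = 0.524), each lower on 3 of 3 days. These are also the 3 members whose s-GAG libraries all lay below all Control libraries in CPM. That pattern was held by 7.53% of 16792 genes with at least 50 reads. For Gsdmd it did not hold in FPKM, with 12.15 in s-GAG of day 3 and 11.35 in the Control of day 14. Gsdma had +1.55 (SE 0.72, adjusted p = 0.545), and no member lay above the Control in all s-GAG libraries (9.46% of genes did). Without the s-GAG library of day 14, the fold changes were -1.41 for Nlrc4, -1.38 for Nlrp3, -1.08 for Gsdmd, and +2.07 for Gsdma. Without the s-GAG library of day 3 they were -2.97 for Nlrc4, -2.33 for Nlrp3, and +0.67 for Gsdma. By edgeR these differences did not pass the FDR with all libraries or without any single one.

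For d-SMG all 8 log2 fold changes were negative, from -0.32 for Aim2 to -0.82 for Nlrc4, each with an adjusted p of 1 by edgeR. For Alg they were negative for 7 of 8 members, with Nlrc4 the lowest at -1.06 (SE 0.65) and Gsdma the exception at +0.81 (SE 0.69), and the adjusted p was again 1. Without the Alg library of day 14 these 2 values became -1.82 and +0.44. The ranges overlapped with the Control for all 8 members with both dressings, whereas 1.27% and 4.23% of genes lay below and 2.54% and 5.76% above the Control range with d-SMG and Alg, respectively. Without the d-SMG library of day 3, the d-SMG values of Aim2, Casp1, and Gsdma turned to +0.43, +0.20, and +0.24, and those of Casp4 and Gsdmd moved from -0.61 and -0.47 to -0.057 and -0.18. Without the Control library of day 3 instead, the d-SMG values of Aim2 and Pycard turned to +0.44 and +0.18.

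On single days each treated library was set beside the Control library of that day, with no replicate check. A member was counted when it differed at least 2-fold, and the share of all genes past the same line is given as the background. On day 3, d-SMG had 6 of 8 members at least 2-fold lower against 13.1% of genes and 0 higher against 9.88%. Alg had 3 lower (8.79%) and 0 higher (11.4%), and s-GAG had 1 lower (11.4%) and 1 higher (14.2%). The median log2 ratio of the members on that day was -1.43 with d-SMG, -0.95 with Alg, and -0.48 with s-GAG, beside 0.00, -0.01, and -0.04 over all genes. When library size alone replaced TMM, the median over all genes moved by -0.46 with d-SMG, 0.17 with s-GAG, and 0.15 with Alg, and the ratios given here are relative to the TMM scale. The d-SMG count comes from the library with few keratinocyte and many muscle reads, whose part in it was not tested.

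At the 2-fold line, Gsdmd was the member counted in all 3 treated libraries of day 3. The share of all genes past the line in all 3 was not counted, and 23.9% were lower in all 3 by any amount. The same Control library enters each ratio. With library size alone or with FPKM, Gsdmd in Alg had a log2 ratio of -0.92 or -0.98, just inside the line. It was 2.30-fold lower in d-SMG (log2 ratio -1.20, 95% counting interval -1.38 to -1.02), 2.30-fold lower in s-GAG (-1.36 to -1.05), and 2.10-fold lower in Alg (-1.21 to -0.93). Aim2 separated them, being 6.33-fold lower in d-SMG and 8.82-fold lower in Alg but 1.28-fold lower in s-GAG. Pycard was 2.27-fold lower in both d-SMG and Alg and 1.39-fold lower in s-GAG. Casp4 and Casp1 were 4.57-fold and 3.15-fold lower in d-SMG, and less than 2-fold lower in the other treated libraries. Gsdma went apart, 7.15-fold lower in d-SMG from 7 against 98 reads and 4.38-fold higher in s-GAG from 322 against 98 reads.

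**Figure D3:**
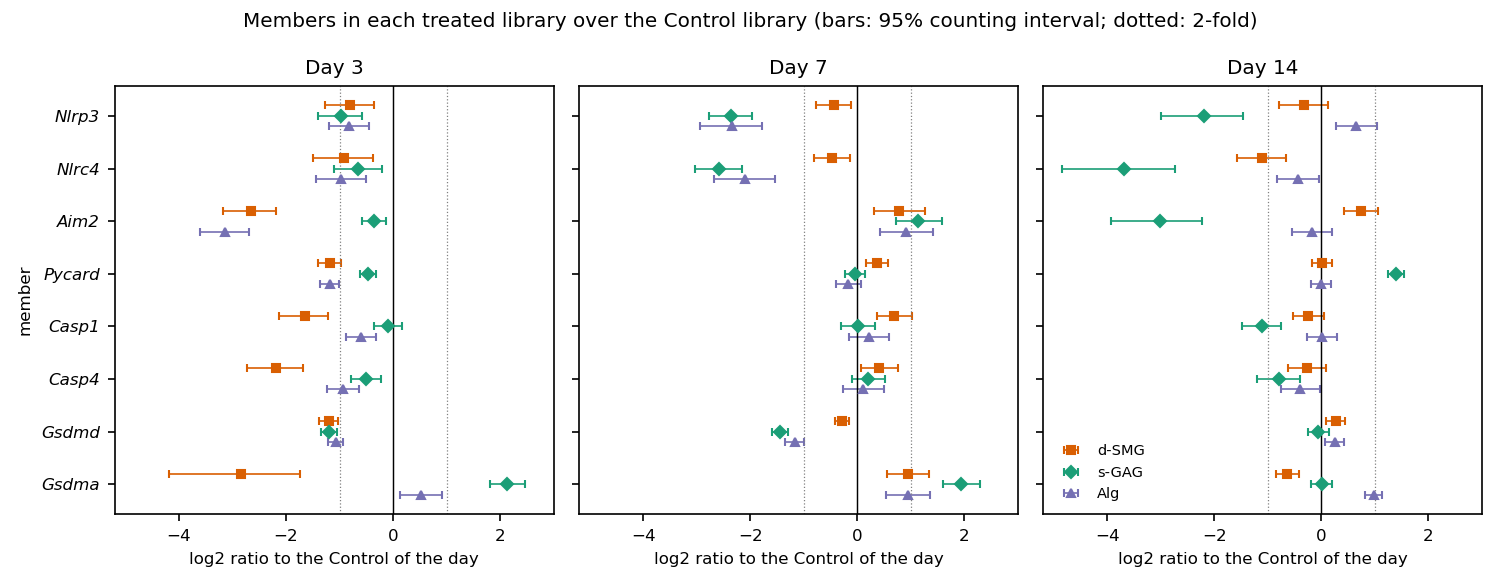
Log2 ratio of each treated library to the Control library of the same day (horizontal axis) for each member (vertical axis), 1 panel per day; points are single pairs of libraries and bars 95% counting intervals, with dotted lines at 2-fold. On day 3 the points of 7 members lie left of 0 for all 3 treatments, and on day 7 Nlrp3, Nlrc4, and Gsdmd of s-GAG and Alg lie beyond 2-fold lower.

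On day 7 Nlrp3, Nlrc4, and Gsdmd were lower in s-GAG and Alg, and d-SMG was closer to the Control. Both s-GAG and Alg had 3 of 8 members at least 2-fold lower, beside 12.5% and 12.1% of genes, and these were Nlrp3, Nlrc4, and Gsdmd. Nlrp3 was 5.16-fold lower in s-GAG and 5.08-fold lower in Alg, and Nlrc4 6.0-fold and 4.27-fold lower. In d-SMG the same genes were 1.36-fold and 1.39-fold lower, and no member reached 2-fold in either direction (5.74% of genes lower, 7.35% higher). s-GAG also had 2 members at least 2-fold higher (11.8% of genes), namely Gsdma with 3.83-fold and Aim2 with 2.20-fold, whereas Alg had 0 (12.3%).

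On day 14 the differences were concentrated in s-GAG. In that library 4 members were at least 2-fold lower and 1 was higher, and 31.1% of all genes were lower and 26.6% higher by the same measure, the largest shares of the 9 single-day comparisons. Nlrc4 was 12.9-fold lower from 9 against 156 reads, Aim2 8.11-fold, Nlrp3 4.56-fold, and Casp1 2.16-fold lower, and Pycard was 2.63-fold higher. d-SMG had 1 member at least 2-fold lower, Nlrc4, beside 16.1% of genes, and 0 higher beside 12.7%. Alg had 0 members past 2-fold in either direction (11.8% lower, 9.51% higher), with Gsdma at 1.97-fold higher just inside the line.

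Taking the 3 treated libraries of a day together, 7 of 8 members were lower than the Control in all 3 on day 3, every member but Gsdma (6 with library size alone or with FPKM, where Casp1 of s-GAG lay above the Control), where 23.9% of genes were lower in all 3 and 22.3% higher. Without the d-SMG library the count remained 7, beside 40.2% of genes lower in both other libraries. On day 7, 3 members were lower in all 3 (Nlrp3, Nlrc4, and Gsdmd, beside 23.6% of genes; with library size alone Gsdmd of d-SMG lay above the Control) and 4 higher (Aim2, Casp1, Casp4, and Gsdma, beside 27.4%). On day 14, 2 members were lower in all 3 (Nlrc4 and Casp4, beside 29.2%) and 0 higher (28.4%). All 3 comparisons of a day share 1 Control library, and a high or low value in that library moves all of them. In the Control of day 3 the interferon response sum was 4332 CPM, against 111 to 1131 CPM in the other 11 libraries, and the part of this library in the result was not tested further.

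A fit that takes the 3 treatments as replicates of a treated wound, and assumes that the lone Control library varies like them, called 0 members and 0% of 16809 genes on day 3, 7, and 14. At an unadjusted p under 0.05 edgeR listed 394, 330, and 1317 genes on these days, and 1, 0, and 0 members, while DESeq2 called 12, 1, and 116 genes and no member. The member was Gsdmd on day 3, with a log2 fold change of -1.15 (SE 0.41, unadjusted p = 0.0204, adjusted p = 1 by edgeR), and -1.10 without the d-SMG library of that day. Casp4 had -1.03 (SE 0.55), Aim2 -1.49 (SE 1.15), and Pycard -0.90 (SE 0.59) on day 3, each with an adjusted p of 1, and these became -0.67, -1.12, and -0.75 without that library. Without the s-GAG library of day 3 they were -1.43, -2.90, and -1.20. On day 7 Nlrp3 had -1.44 (SE 0.90) and Gsdmd -0.90 (SE 0.42), also with an adjusted p of 1. Without the d-SMG library of day 7 these values were -2.34 and -1.28, and by limma on log2(FPKM + 1) that of Nlrp3 was -0.66. The change of the difference between day 3 and the mean of day 7 and 14 was largest for Aim2 with -1.87 (SE 1.49, adjusted p = 0.941) and -3.29 without the s-GAG library of day 3, with 0 members and 0% of genes called. At an unadjusted p under 0.05 this comparison listed 481 genes by edgeR and 0 members, and DESeq2 called 0 genes.

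Over time, Gsdma had the largest differences of the 8 members, which did not pass the FDR of 0.05 by edgeR. From day 3 to day 14 its log2 fold change over the 4 treatments was +2.56 (SE 0.65, unadjusted p = 0.00318, adjusted p = 0.882 by edgeR), higher in 4 of 4 treatments. From day 7 to day 14 it was +1.52 (SE 0.62, unadjusted p = 0.0353, adjusted p = 0.904). No member and 0% of 16110 genes were called from day 3 to 7, from day 7 to 14, or from day 3 to 14, with 292, 502, and 798 genes and 0, 1, and 1 members at an unadjusted p under 0.05. DESeq2 called 0, 7, and 39 genes, Gsdma from day 3 to 14 among them with a log2 fold change of 2.59 and an adjusted p of 0.0206. This call was also made by DESeq2 without the d-SMG library of day 3 (2.09, adjusted p = 0.0407), without the s-GAG library of day 14 (3.04, adjusted p = 0.00119), and without both (2.52, adjusted p = 5.0e-05), and without both DESeq2 also called Gsdma from day 7 to 14 (1.93, adjusted p = 0.00120). Without the d-SMG library of day 3 the edgeR value was +2.08, and the keratinocyte sum was also higher on day 14 than on day 3 in each treatment. The other 7 members had log2 fold changes between -0.43 and +0.41 from day 3 to 14, so that no shared course over time was seen.

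The members were then set beside the marker lists. The lowest Nlrp3 and Nlrc4 levels fell in the s-GAG library of day 14, which also held the lowest macrophage sum, and the Alg library of day 7, with Nlrp3 at 2.12 and Nlrc4 at 2.25 CPM, held the next lowest macrophage sum, 363 CPM. The s-GAG library of day 7 had similar levels, 2.09 and 1.60 CPM, at a macrophage sum of 828 CPM, near the 862 CPM of the s-GAG library of day 3, where Nlrp3 was 3.97 and Nlrc4 3.51 CPM. All 11 macrophage markers were detected in every library. Aim2 was highest in the 2 libraries with the highest interferon response sums, the Control of day 3 with 4332 CPM and s-GAG of day 3 with 1131 CPM. Its next highest level, 12.3 CPM in d-SMG of day 14, came with an interferon response sum of 350 CPM. In s-GAG of day 7 that sum was 785 CPM and Aim2 was 8.05 CPM. Gsdma was lowest where the keratinocyte sum was lowest, but its highest level, in Alg on day 14, came with a keratinocyte sum of 15018 CPM, not with the highest. The hair follicle sum was highest in that Alg library, at 7204 CPM, and lowest in d-SMG of day 3, at 4.50 CPM. Other libraries did not rank alike. Alg of day 3 held 1083 CPM of hair follicle markers with Gsdma at 5.97 CPM, and the Control of day 14 held 303 CPM with Gsdma at 26.3 CPM. The part of cell composition in these levels was not tested.

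**Figure D4:**
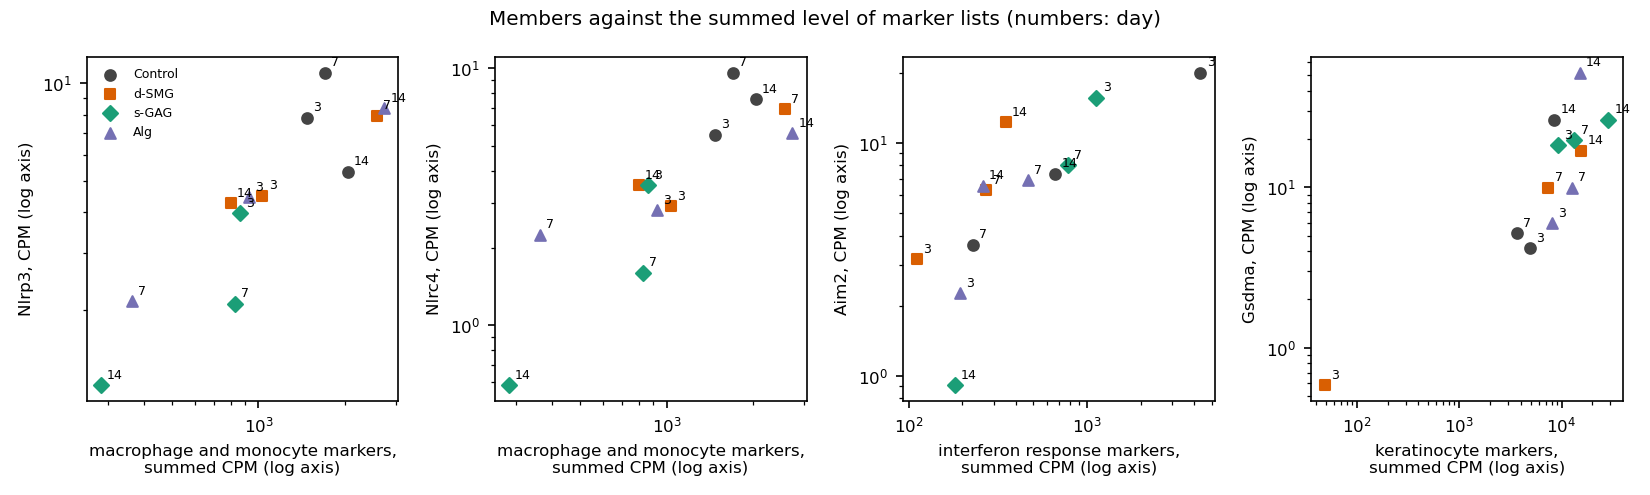
CPM of Nlrp3, Nlrc4, Aim2, and Gsdma (vertical axes, log scale) against the summed CPM of a marker list (horizontal axes, log scale); each point is 1 library, with colour and symbol for the treatment and a number for the day, without error bars. The s-GAG library of day 14 is at the lower left for Nlrp3 and Nlrc4, the Control of day 3 at the upper right for Aim2, and d-SMG of day 3 at the lower left for Gsdma.

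Across the 12 libraries, Nlrp3 and Nlrc4 were the most alike pair of members in log2 CPM. Their Pearson correlation was 0.94 and their Spearman correlation 0.89. By Pearson's, Casp1 and Casp4 came next with 0.85, where Spearman's was 0.66. By Spearman's, Nlrp3 and Gsdmd came next with 0.83, where Pearson's was 0.76. The lowest Pearson correlation was that of Nlrc4 and Pycard with -0.36, where Spearman's was 0.15. Without the s-GAG library of day 14 the Pearson correlation of Nlrc4 and Pycard turned to 0.44. That of Aim2 and Pycard turned from -0.14 to 0.82. Without the d-SMG library of day 3, that of Casp4 and Gsdma turned from 0.36 to -0.51. Without both libraries the values were 0.91 for Nlrp3 and Nlrc4, 0.84 for Nlrp3 and Gsdmd, and 0.41 for Casp1 and Casp4. These are descriptions over 12 libraries that share treatments, days, and tissue composition. Among 14125 genes, those most alike to Nlrp3 were Pdpn, Irag2, and Rab32 (Pearson correlation 0.97 to 0.98), and those most alike to Nlrc4 were Pik3cg, Fyb1, and Itgal (0.97 to 0.98), of which Pik3cg, Fyb1, and Itgal are genes of leukocytes. For Aim2 they were Gbp4, Oasl2, and Samhd1 (0.91 to 0.93), genes known to respond to interferon, and for Gsdma Xkrx, Il36rn, and Tyro3 (0.96 to 0.97), of which Il36rn encodes an interleukin-36 antagonist of the epidermis. Casp4 came nearest to Adar, Nat2, and Spats2l (0.89 to 0.90), and Casp1 to Zic1, C3, and Tent5c (0.92 to 0.93). Gsdmd came nearest to Prr13, Cmtm3, and Gng2 (0.93 to 0.95), and Pycard to Anapc10, Nme3, and Cdk2ap2 (0.92 to 0.93). Without both libraries the correlations remained at 0.93 to 0.98 for the genes most alike to Nlrp3, Nlrc4, Gsdmd, and Gsdma, and were 0.84 to 0.88 for Aim2, 0.75 to 0.83 for Pycard, 0.71 to 0.96 for Casp1, and 0.66 to 0.72 for Casp4.

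The rest of the pathway was described with a list of 41 further sensors, regulators, caspases, pore proteins, and interleukins, of which 40 were found and 39 tested. Over the 3 days 0 rose and 0 fell in any comparison at an FDR of 0.05 by edgeR, and the median log2 fold change of the list was -0.19 for d-SMG, -0.60 for s-GAG, and -0.42 for Alg, beside -0.03, 0.00, and -0.03 over all genes. Single days were counted at the 2-fold line, with the share of all genes past the same line in parentheses. On day 3, 11 of 37 listed genes were lower (13.1%) and 1 higher (9.88%) with d-SMG, 6 of 38 lower (11.4%) and 5 higher (14.2%) with s-GAG, and 7 of 38 lower (8.79%) and 2 higher (11.4%) with Alg. On day 7, 1 of 39 was lower (5.74%) and 3 higher (7.35%) with d-SMG, 10 of 39 lower (12.5%) and 8 higher (11.8%) with s-GAG, and 12 of 39 lower (12.1%) and 3 higher (12.3%) with Alg. On day 14, 6 of 39 were lower (16.1%) and 8 higher (12.7%) with d-SMG, 19 of 37 lower (31.1%) and 3 higher (26.6%) with s-GAG, and 3 of 38 lower (11.8%) and 4 higher (9.51%) with Alg.

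Il1b, which encodes the precursor of interleukin-1β, was 11.4, 27.4, and 11.4 CPM in the Control on day 3, 7, and 14, and 8.11, 8.91, and 6.23 CPM with s-GAG. It was 4.83, 15.6, and 24.7 CPM with d-SMG and 6.57, 8.49, and 26.7 CPM with Alg. The s-GAG libraries lay below all Control libraries, as they did for 7.53% of 16792 genes with at least 50 reads. With d-SMG and Alg, Il1b was lower than in the Control on day 3 and 7 and higher on day 14. Il18, the other precursor that caspase-1 matures, was steadier at 3.78 to 8.56 CPM. Its log2 fold change over the days was -0.01 for d-SMG, -0.57 for s-GAG, and -0.86 for Alg (SE 0.28, 0.28, and 0.29; adjusted p = 1, 0.567, and 1 by edgeR). Il1rn, the receptor antagonist, lay between 7.71 and 30.6 CPM and was highest in the d-SMG library of day 3. Il1a was at most 3.49 CPM and had 0 reads in the d-SMG library of day 3.

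Among the partners of the members, Naip6, which detects bacterial ligands for Nlrc4, was 0.74 to 6.22 CPM and lowest in s-GAG on day 7, though reads of the near-identical Naip genes can be split between them. Gsdme, a gasdermin cleaved by caspase-3, was 0.45 to 4.61 CPM and lowest in s-GAG on day 14 with 7 reads. Ninj1, which ruptures the membrane after the pores have formed, was 126 CPM in the Control of day 3 and 35.3 to 85.1 CPM elsewhere. On day 3 the log2 ratio of Ninj1 was -1.01 with d-SMG, -1.63 with s-GAG, and -1.58 with Alg, in the same direction as that of Gsdmd. Gbp2 and Gbp5, interferon-induced proteins that help expose bacterial ligands, were named after their values were seen. They were 1242 and 273 CPM in the Control of day 3 and at most 400 and 171 CPM in the other libraries, with the next highest levels in s-GAG on day 3, the same pair of libraries in which Aim2 was high.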

How the data were processed

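Total RNA of wound skin was sequenced from stranded libraries depleted of rRNA. The authors deposited read counts per gene, as whole numbers without normalization, and FPKM values, which are scaled by gene length and library total. The submitters' processing notes name bcl2fastq, FastQC, TopHat2, and edgeR without versions. The genome build, the counting tool, and its use of strand are not given in the sources used here, so no gene coordinates of the files are given, and Nlrp3 overlaps an lncRNA in RefSeq. Each table holds 1 further column of values that matches no described sample and was not used.

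Library totals were 13748887 to 38302461 reads. Counts were scaled by TMM and tested with the quasi-likelihood test of edgeR 4.0.16 (R 4.3.3), genes kept by filterByExpr, and Benjamini-Hochberg adjustment over all genes tested at an FDR of 0.05. In the fit over days, the terms were day and treatment. A further fit had 1 term for each combination of day with Control or treated. All tests were two-sided. With 1 library per treatment and day, the p-values measure the spread between days or between treatments, not between animals. For single-day ratios, a gene needed 10 or more reads summed over the pair of libraries, and the ratios carry exact Clopper-Pearson intervals at 95%, which cover counting error only, as do the intervals of single levels. Medians and backgrounds are over all genes that met the same minimum.

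The genes named are the 8 members, Il1a, Il1b, Il18, Il1rn, Naip6, Gsdme, and Ninj1 of the pathway list, any listed gene past the FDR, and the 3 genes most alike to each member by Pearson correlation of log2 CPM (prior count 2). Genes named outside this rule are said to be so. The members, the lists of 41 pathway genes, and the 10 lists of 93 marker genes were chosen with earlier results of these data known. Not found in the counts were Naip2, Sfn, and Scd1. Alternatives were DESeq2 1.42.0, limma 3.58.1 on log2(FPKM + 0.1) and log2(FPKM + 1), RLE size factors or library size, other filters, no day term, a 1.5-fold line, and leaving out each library or day, and, added after seeing the data, DESeq2, the ranges, and the correlations without the 2 libraries that stand apart. The fit over days was tested on simulated data with the same fixed spread for every gene. That spread was not estimated from these libraries, so the test does not show the power of the fit here. Promoter sequences are from RefSeq (GRCr8). Python 3.11.15 with matplotlib 3.10.9 drew the figures.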

Additional observations from a re-analysis of the deposited data

Results flagged for a closer look

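Aim2, Casp1, and Casp4 lay below the Control in all 3 treated libraries of day 3 and above it in all 3 of day 7. Of genes with at least 50 reads, 23.9% were lower in all 3 on day 3 and 27.4% higher in all 3 on day 7. The share of genes with both was not counted. The change of the difference between treated and Control wounds from day 7 to day 3 was tested in the fit with treatments as replicates, a comparison chosen after seeing the data. The log2 difference of day 3 minus that of day 7 was -2.43 for Aim2 (SE 1.81), -0.95 for Casp1 (SE 0.89), and -1.27 for Casp4 (SE 0.83), each with an adjusted p of 1.0 by edgeR. Without the d-SMG library of day 3 the values for Casp1 and Casp4 were -0.60 and -0.90. Without the s-GAG library of day 3 the values for Aim2, Casp1, and Casp4 were -3.84, -1.35, and -1.66. No gene was called among the 16809 tested, 330 genes and no member had an unadjusted p under 0.05, and DESeq2 called 4 genes and no member. All 3 genes rest on the same Control library on each day, and on day 7 the counting intervals of Casp1 and Casp4 with s-GAG and Alg include no difference from it. On day 14 Casp4 was again below the Control in all 3 treated libraries, and the other 2 genes were not on a single side.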

How the results depend on the processing

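DESeq2 called 1 member, Gsdma, from day 3 to 14 (log2 fold change 2.59), and no other alternative to edgeR with all libraries called a member in any comparison. With d-SMG of day 3, s-GAG of day 14, or both left out, which was chosen after seeing the data, DESeq2 again called this 1 member. It also called 1 member for s-GAG without the former (Nlrc4) and without both (Gsdma), and 1 from day 7 to 14 without both (Gsdma), while edgeR called 0 members without both. Over all genes, the 0 calls of edgeR became 9, 288, and 88 with DESeq2 for d-SMG, s-GAG, and Alg over the days, and for s-GAG up to 66 without the d-SMG library of day 3. On day 14, limma on log2 FPKM called 10 (+ 0.1) and 40 (+ 1) genes for treated against Control. With d-SMG, the fold changes of Aim2, Pycard, Casp1, Casp4, and Gsdma reversed to 0.75, 0.22, 0.21, 0.054, and 0.13 without day 3. When single libraries were left out, they ranged from -1.29 to 0.44 for Aim2, -0.69 to 0.18 for Pycard, -0.74 to 0.20 for Casp1, and -1.24 to 0.24 for Gsdma. DESeq2 without d-SMG of day 3 gave 0.41 for Aim2, 0.17 for Casp1, and 0.21 for Gsdma, and without both libraries 0.15, 0.15, and 0.21, where edgeR gave 0.18, 0.18, and 0.24 and 0.032 for Pycard.

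Counts of members past the 2-fold line changed with the line or the scale. At 1.5-fold they were 3 lower for s-GAG and 7 lower for Alg on day 3, 3 higher for d-SMG and 2 higher for Alg on day 7, and 2 lower and 1 higher for d-SMG and 2 higher for Alg on day 14. By library size they were 2 higher for d-SMG on day 7, 0 lower for d-SMG on day 14, and 1 higher for Alg on day 14. By FPKM they were 1 higher for d-SMG and 1 higher for s-GAG on day 7, 0 lower for d-SMG on day 14, and 1 higher for Alg on day 14.

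Members higher than the Control in all treated libraries ranged from 0 to 1 on day 3 without single libraries, and without d-SMG the member was Gsdma. Members lower in all on day 14 ranged from 2 to 4, with 4 without Alg, and members higher on day 14 were 1 with RLE factors (Gsdmd), 1 with library size or FPKM (Pycard), and 1 without d-SMG (Gsdma), without s-GAG (Gsdmd), or without Alg (Pycard). These alternatives for the sides of the Control were chosen after seeing the data. Of the remaining 355 recomputed counts, each stayed within 1.5 times of the value reported. Some single-day log2 ratios of less than 2-fold also changed direction. With library size alone, that of Gsdmd in d-SMG on day 7 went from -0.28 to 0.011. That of Gsdma in s-GAG on day 14 went from 0.0022 to -0.39 with library size alone and to -0.34 with FPKM. The number of libraries and the low reads of Nlrc4, Nlrp3, and Aim2 in s-GAG on day 14 and of Gsdma in d-SMG on day 3 limit what can be said of single days. Libraries were matched by day through the day term of the fit over days, and leaving that term out called no member. No paired analysis was possible within a day because each treatment and day has 1 library.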

Other observations

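Nlrp10 and Nlrp6, further members of the sensor family on the pathway list, and Zbp1, a sensor of nucleic acid in Z form, were named after their values were seen. Nlrp10, which is known from the epidermis, was 5.78, 2.30, and 41.6 CPM in the Control on day 3, 7, and 14 and 62.4, 94.1, and 74.5 CPM with s-GAG, with a log2 fold change of 3.18 over the days (SE 1.10, adjusted p = 0.493 by edgeR). It was lowest in the d-SMG library of day 3 with 1.17 CPM, as Gsdma was. Nlrp6 was 7.65 CPM in the s-GAG library of day 3 from 135 reads and at most 0.75 CPM in the other 11 libraries. Zbp1 was 63.0 CPM in the Control of day 3, and its log2 ratio on that day was -4.76 with d-SMG, -1.97 with s-GAG, and -4.56 with Alg, so that s-GAG was nearest to the Control, as it was for Aim2.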
